A study of Mus musculus with 2 samples.

Results

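The miR-183 cluster is a group of 3 miRNA genes, Mir183, Mir96 and Mir182, that lie next to each other and are best known from sensory organs. It was described here in small RNA libraries of the embryonic mouse forebrain. The 3 genes were taken by name from the 1973 miRNA genes counted in each library, and all 3 were found. The forebrains came from B6NCrl embryos at embryonic day 14.5, and the labels name no altered allele and no treatment. There were 2 libraries, numbered as biological replicates 1 and 2. Each is labelled as 1 forebrain, and the collection day differed, yet the sex is given as pooled and both carry 1 donor identifier. The p-values below therefore measure only the spread or counting error of these libraries, which may be partly technical. With 1 tissue and 1 age, no comparison between conditions was possible.

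The 3 hairpins are cut from a shared primary transcript, and each yields a mature miRNA that pairs with target mRNAs mainly through its seed, bases 2 to 8 from the 5′ end. The cluster is a classical marker of ciliated sensory cells: photoreceptors of the retina, hair cells of the inner ear, and olfactory and other sensory neurons. Mutations in the seed of miR-96 cause hearing loss in mice and humans, and loss of the cluster in mice damages photoreceptors. The questions here were how much of each member was present in the embryonic forebrain, and whether the members kept 1 ratio between libraries.

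The hairpins are shown first, 5′ to 3′ as in RefSeq on GRCm38.p6, because the counts belong to whole hairpins. Capitals mark the 5p arm and then the 3p arm.
Mir183: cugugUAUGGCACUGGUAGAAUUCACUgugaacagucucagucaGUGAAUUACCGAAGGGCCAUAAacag
Mir96: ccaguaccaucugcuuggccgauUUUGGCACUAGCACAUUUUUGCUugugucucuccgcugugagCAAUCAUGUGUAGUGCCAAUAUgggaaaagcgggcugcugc
Mir182: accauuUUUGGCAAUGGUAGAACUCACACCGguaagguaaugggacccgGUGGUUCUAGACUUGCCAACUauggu

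The mature 5p arms, the usual guide strands, are shown again with the seed in capitals to compare what each could pair with.
miR-183-5p: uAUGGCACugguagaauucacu
miR-96-5p: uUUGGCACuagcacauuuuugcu
miR-182-5p: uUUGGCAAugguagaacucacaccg

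The 3 seeds were related but different. Counted from 1 at the 5′ end, with the miR-183-5p base first, miR-96-5p differed in the seed by A2U alone, and miR-182-5p by A2U and C8A. Between miR-96-5p and miR-182-5p the only seed difference was C8A, so both share bases 2 to 7. Over the whole arm, seed included, miR-183-5p and miR-182-5p had the same base at 18 of 22 positions (81.8%, without gaps), against 13 of 22 (59.1%) for miR-183-5p and miR-96-5p and 12 of 23 (52.2%) for miR-96-5p and miR-182-5p. Among 1738 mature mouse miRNAs in the RefSeq table, no other carried the full seed of miR-183-5p or of miR-182-5p. The seed of miR-96-5p was carried by miR-1271-5p as well, and its gene Gm24195 had 0 counts in both libraries, which allows up to 0.424 and 0.378 CPM (3 counts).

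On mm10 the genes lie on the minus strand of chromosome 6. Mir183 (ENSMUSG00000065619.2), the first in the direction of transcription, is at chr6:30169668-30169737. Mir96 (ENSMUSG00000065586.1) follows after 116 bases at chr6:30169446-30169551, and Mir182 (ENSMUSG00000076361.1) after a further 3453 bases at chr6:30165918-30165992. In GENCODE M21 no other gene overlaps the 3820 bases they span, so all 3 are intergenic. The nearest gene is Rncr4, a long non-coding RNA known from photoreceptors, on the opposite strand 3155 bases beyond the 5′ end of Mir183 (chr6:30172893-30175126). On the other side lies Nrf1, a transcription factor gene, 12459 bases beyond Mir182 (chr6:30047988-30153458). The nearest counted miRNA genes were far away: Gm23049, with 0 counts in both libraries, at 177428 bases on the Nrf1 side, and Mir335 at 571561 bases on the Rncr4 side.

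The libraries held 7080317 and 7946585 counts on the strand of a miRNA gene in replicates 1 and 2, so that 1 count was worth 0.141 and 0.126 CPM (counts per 1000000 miRNA counts). Reads that matched several places, 42.2% to 43.3% of all reads, entered no gene count. No member shared 20 nt or more with another annotated hairpin, the longest shared run was 14 nt for Mir183 and 11 nt for Mir96 and Mir182, and each mature arm occurred in 1 RefSeq hairpin. Matches outside annotated hairpins were not analysed here. As a check of the tissue, the neuronal Mir137 stood at 7614 ± 481 CPM (SD, n = 2), while the 3 loci of miR-124 share sequence with each other and had at most 18 counts.

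Mir182 had the most counts of the members, Mir183 came next, and Mir96 had the fewest, in both libraries. How well each mature sequence was captured in the libraries was not measured, so this is an order of counts. Mir182 had 1044 counts in replicate 1 and 1435 in replicate 2, or 147 and 181 CPM. Mir183 had 579 and 1096 counts, or 81.8 and 138 CPM. Mir96, the member whose seed is tied to hearing loss, had 236 and 294 counts, or 33.3 and 37.0 CPM. All 3 were higher in replicate 2, with Mir183 furthest apart between libraries and Mir96 nearly level. The 95% Wilson counting interval for Mir183 was 75.4 to 88.7 CPM in replicate 1 and 130 to 146 CPM in replicate 2, and such intervals cover counting error only.

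**Figure D1:**
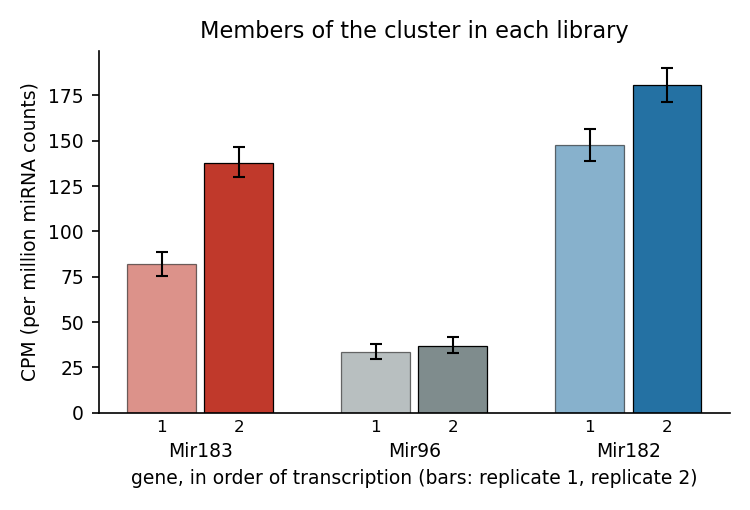
Level of each member in each library, in CPM; bars are single libraries, pale for replicate 1 and full colour for replicate 2, and error bars are 95% Wilson intervals for counting error. Mir183 stands at 81.8 and 138 CPM, and Mir96 at 33.3 and 37.0 CPM.

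Over both libraries Mir182 stood at 164 ± 23.4 CPM, Mir183 at 110 ± 39.7 and Mir96 at 35.2 ± 2.59 (SD, n = 2). By mean CPM they ranked 164, 186 and 247 among the 1973 genes, which places Mir182 and Mir183 above and Mir96 below the median of 81.0 CPM over the 399 genes with 10 or more counts in both libraries. The annotated hairpins are 70, 106 and 75 bases long for Mir183, Mir96 and Mir182, and levels were also set per 100 bases of hairpin. Inserts were at most 30 bases and the mature arms are 21 to 25, so counts need not follow hairpin length. Levels per 100 bases may therefore place Mir96, with the longest hairpin, too low. On that scale Mir182 stood at 219 ± 31.2 CPM, Mir183 at 157 ± 56.7 and Mir96 at 33.2 ± 2.44. Mir96 was below both others beyond their spread. Mir182 was above Mir183 within each library, at 196.6 against 116.8 CPM per 100 bases in replicate 1 and 240.8 against 197.0 in replicate 2. Across libraries the values of these genes met on this scale, and in plain CPM they did not.

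**Figure D2:**
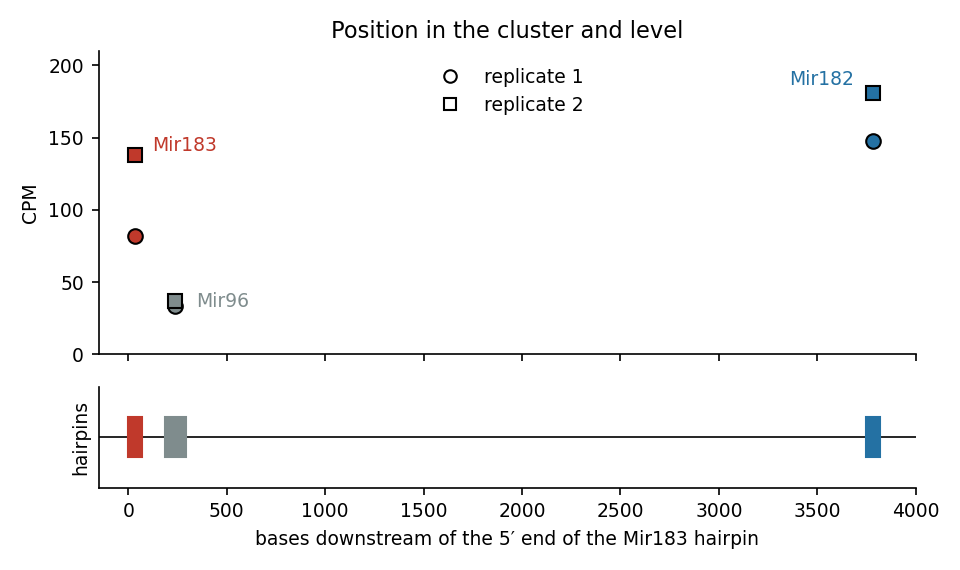
Upper panel, level of each member in CPM against its distance in bases from the 5′ end of the Mir183 hairpin, with circles for replicate 1 and squares for replicate 2; lower panel, the hairpins to scale. Mir183 and Mir96 are 116 bases apart and differ in level, and Mir182 lies 3453 bases further on.

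As a whole the cluster was a trace component: 0.0263% of the miRNA counts in replicate 1 (95% Wilson interval 0.0251% to 0.0275%) and 0.0355% in replicate 2 (0.0343% to 0.0369%). In summed counts this was 1859 and 2825, or 263 and 355 CPM. Mir182 made up 56.2% of the cluster in replicate 1 and 50.8% in replicate 2. Mir183 made up 31.1% and 38.8%, and Mir96 12.7% and 10.4%. Of the 92.9 CPM by which replicate 2 exceeded replicate 1, Mir183 gave 60.4%, Mir182 35.6% and Mir96 3.94%.

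The ratios between members, which do not depend on how a library is scaled, were unequally stable. The ratio of Mir183 to Mir182 counts was 0.555 in replicate 1 (95% Wilson interval 0.501 to 0.614) and 0.764 in replicate 2 (0.706 to 0.826), and these intervals do not overlap. The ratio of Mir96 to Mir183, the closest neighbours, was 0.408 (0.350 to 0.474) and 0.268 (0.236 to 0.305), again without overlap. The ratio of Mir96 to Mir182, which lie 3453 bases apart, was 0.226 (0.196 to 0.260) and 0.205 (0.181 to 0.232), with intervals that overlap. Both ratios that include Mir183 differed beyond counting error, and that of Mir96 to Mir182 did not. Those that differed have Mir183 in common and are not independent of each other. With 1 library on each side, these intervals speak of counting error and not of the spread between embryos.

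**Figure D3:**
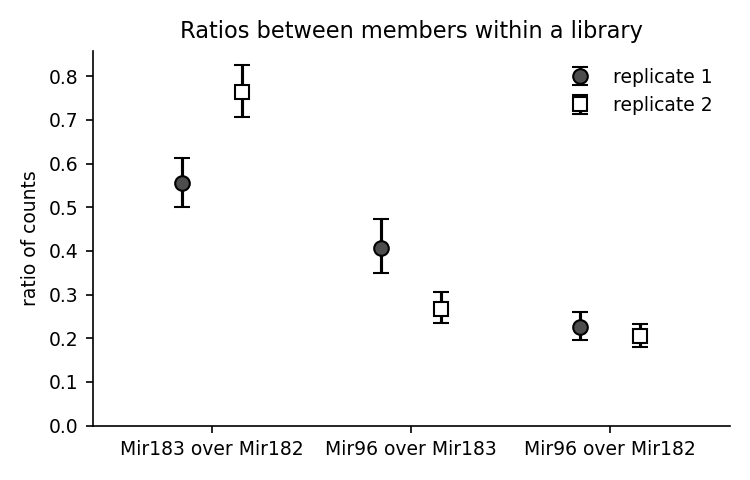
Ratio of counts between members within a library (filled circles, replicate 1; open squares, replicate 2), with 95% Wilson intervals for counting error. The ratios that involve Mir183 differ between libraries (0.555 and 0.764; 0.408 and 0.268), and that of Mir96 to Mir182 does not beyond its intervals (0.226 and 0.205).

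In CPM, Mir183 was 1.69-fold higher in replicate 2 than in replicate 1 (95% Wilson interval 1.53 to 1.87). Mir182 was 1.22-fold higher (1.13 to 1.33), and Mir96 had a ratio of 1.11 (0.935 to 1.32). By Fisher's exact test, which set each gene against all others and was adjusted by Benjamini-Hochberg over the 1973 genes, Mir183 (adjusted p = 8.41e-24) and Mir182 (adjusted p = 8.73e-06) differed between these libraries and Mir96 did not pass (adjusted p = 1). So 2 of 3 members were called higher in replicate 2, where 3.19% of all 1973 genes and 15.3% of the 399 genes with 10 or more counts in both libraries were. The members share a locus and are not independent of each other. No member reached the 2-fold difference that 0.355% of all genes passed with the same test.

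This test knows counting error only. With edgeR's exact test and a common dispersion (a biological coefficient of variation of 15.5%), 0.101% of all genes were called and the adjusted p was 1 for each member. That dispersion was estimated from the same differences between the 2 libraries that are then tested, so a loss of calls is largely built in, and the folds are unchanged. Without adjustment edgeR's exact test gave p = 0.0214 for Mir183, 0.366 for Mir182 and 0.665 for Mir96. The median fold between libraries was 1.17 over the 399 detected genes, of which 90.0% stayed within 1.5-fold. Mir182 and Mir96 were inside that range and Mir183 was outside it.

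All 3 members were higher in replicate 2, against 151 of the 399 detected genes, whose median log2 ratio was -0.09. That background depends on the scaling. Of the 178 genes called by Fisher's exact test, 63 were higher in replicate 2 and 115 in replicate 1, with TMM library sizes 79 and 88, and with median-of-ratios size factors 90 and 80. The last moved all log2 ratios up by 0.11. The members' direction was the same with each, at 1.82-fold for Mir183, 1.32-fold for Mir182 and 1.20-fold for Mir96 with median-of-ratios factors.

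**Figure D4:**
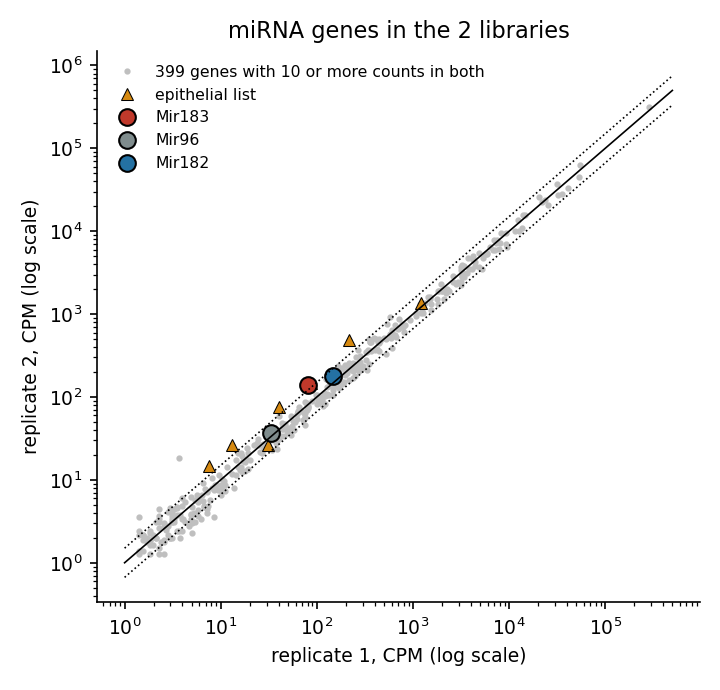
Each gene's CPM in replicate 1 (x axis) and replicate 2 (y axis), both on log scales; grey points are the 399 genes with 10 or more counts in both libraries, triangles the epithelial list, large circles the members, the solid line equality and the dotted lines 1.5-fold. Mir183 lies above the upper dotted line with the miR-200 genes, and Mir96 and Mir182 lie between the dotted lines.

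Only 9 of the 399 detected genes had a higher ratio toward replicate 2 than Mir183, and 5 of these were the miR-200 family, which marks epithelia, olfactory epithelium included. Mir429 had a ratio of 2.23, Mir200a 1.99, Mir141 1.98, Mir200c 1.88 and Mir200b 1.69. Of these, Mir429, Mir200a and Mir200b lie in a shared cluster and are not independent of each other. The other 4, named after their values were seen, were Mir144 of erythroid cells, Mir6951, Mir1927 and Mir378c. They had at most 145 counts in a library, as did Mir141 with 53 and 118. Mir144, with 26 and 145 counts, had the highest ratio of the detected genes, 4.97. It passed edgeR's exact test (adjusted p = 0.00011), which no miR-200 gene did. Mir200b was the gene nearest to Mir183 by level, with 621 and 1178 counts against 579 and 1096. Its distance was 0.14 on the log2(CPM + 1) scale over the 2 libraries. Such a distance contains the ratio between the libraries, so it is no separate likeness. The next nearest, Mir455 (686 and 831 counts, distance 0.46) and Mir500 (717 and 850, distance 0.47), had a similar level in replicate 1 and lower ratios of 1.08 and 1.06. A likeness over 2 libraries is weak, and some gene is always nearest.

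The other members had neighbours of other kinds. Nearest to Mir182 were Mir376c at a distance of 0.11, Mirlet7a-2 at 0.12 and Mir700 at 0.17. The counts of Mir376c and Mirlet7a-2 leave out reads that match their sequence relatives. Nearest to Mir96 were Mir26a-2 at 0.11, whose count has the same limit, Mir150 of lymphocytes at 0.19 and Mir1198 at 0.21. None of these 6 genes belongs to the miR-200 family.

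Since the miR-200 genes stood beside Mir183 in this way, the whole marker lists are given here. All 7 epithelial genes were detected, with a summed level of 1616 CPM in replicate 1 and 2147 CPM in replicate 2. By Fisher's exact test 6 of the 7 were higher in replicate 2, against 15.3% of all detected genes. The median log2 ratio of the 7 was 0.91 against -0.09 over all detected genes. Mir200a, Mir200b and Mir429 share a cluster, so the 7 are not independent of each other. The list was chosen with earlier results of these data known. The skin and epithelial Mir203, at 1219 and 1369 CPM, had a ratio of 1.12, below that of Mir182, and Mir205 one of 0.862 that did not pass (adjusted p = 0.919). The part of epithelial cells in the difference of Mir183 was not tested. In bulk tissue, more cells of a type cannot be told apart from more RNA per cell.

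The other marker lists were mixed, and no test compares them with the members. Of all detected genes, 15.3% were called higher in replicate 2 and 28.6% higher in replicate 1 by Fisher's exact test. Mir204 and Mir211, of the retinal pigment epithelium and choroid plexus, were detected with ratios of 0.952 and 0.983 and a summed level of 1991 and 1896 CPM, and both turned above 1 with TMM or median-of-ratios scaling. Of the 5 multiciliated genes none was higher in replicate 2 and 3 were called higher in replicate 1, also with TMM and median-of-ratios scaling, and their sum was 6086 CPM in replicate 1 and 4772 CPM in replicate 2. The neuroendocrine and pituitary list had 2 of 6 genes higher in replicate 2 and 3 higher in replicate 1 by Fisher's exact test, and sums of 3831 and 3684 CPM. With TMM or median-of-ratios scaling 1 gene was higher in replicate 1 in place of 3. Its Mir375, of endocrine cells, had 196 and 242 CPM (ratio 1.24), close to the ratio of Mir182, and its Mir132, known from active neurons, had 348 and 495 CPM (ratio 1.43). On the neuronal list 5 of 6 genes were detected, 2 were higher in replicate 2 and 1 in replicate 1 (none with median-of-ratios factors), and the sums were 9072 and 8966 CPM. Its Mir128-1 and Mir128-2, which share sequence, had ratios of 1.60 and 1.43, and Mir137 one of 0.914. Mir128-1 thus lay outside the 1.5-fold range in the direction of Mir183. With edgeR's exact test no gene of these lists passed, Mir429 included (adjusted p = 0.226).

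With genes below 10 counts in both libraries left out, the members were closer to each other in level than those of 6 of the other 7 clusters of 3 genes. Genes on 1 strand no more than 10 kb from the next, each reaching 10 counts in at least 1 library, were taken as a cluster, and 8 clusters had exactly 3 genes. Because genes below that minimum were dropped before grouping, a cluster of 3 may be part of a larger one. Its range may then be narrower than that of the whole. The range from the lowest to the highest member was 2.18 log2 units for Mir183, Mir96 and Mir182, on the mean log2(CPM + 1). The only narrower one was that of Mir292, Mir293 and Mir294, early embryonic miRNAs that all lay at or below 3.68 CPM, with 1.04. The other 6 ranged from 4.06, for Mir429, Mir200a and Mir200b, to 10.08, for Mir449a, Mir449b and Mir449c of multiciliated cells. Among these, all 3 genes of the cluster of Mir23a, Mir27a and Mir24-2 (range 6.51) share 20 nt with another hairpin. Their counts may thus leave out reads. With no minimum count there were 10 clusters of 3 genes, this one included, of which 5 were narrower than that of Mir183 and 4 wider. In ratio between libraries the members spread over 0.15 to 0.75 log2 units, and the miR-200 genes of that other cluster over 0.76 to 1.16.

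**Figure D5:**
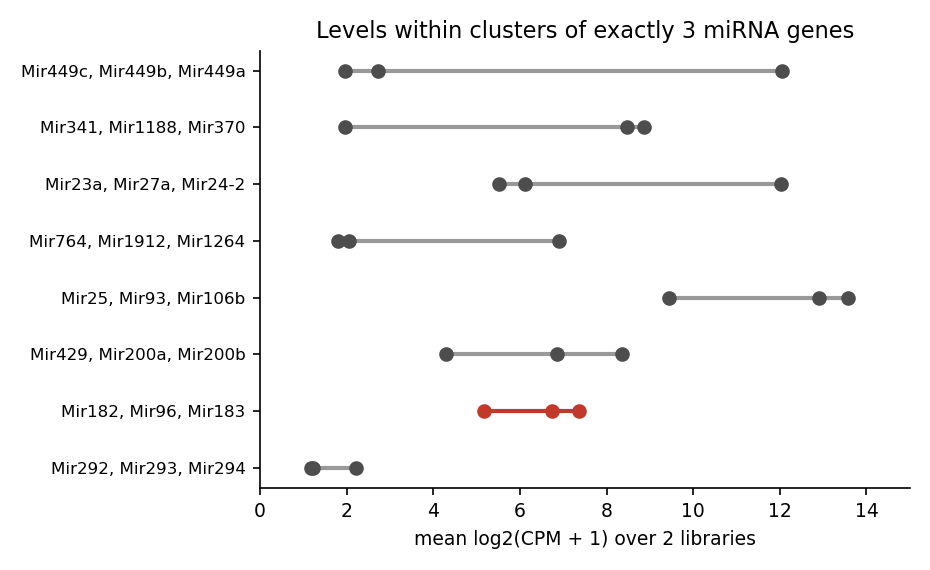
Mean log2(CPM + 1) over 2 libraries of each gene (points) in the 8 clusters of exactly 3 genes; lines span the lowest to the highest member, and the cluster of Mir183 is in red. Its range of 2.18 is the second smallest, after 1.04 for Mir292, Mir293 and Mir294.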

How the data were processed

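The authors deposited a table of whole-number read counts per miRNA gene for each library. Each sample's README states that these derive from 1 alignment file on mm10 with GENCODE M4; the aligner and the counter were not given in the sources used here. Of the 3 count columns (either strand, strand of the gene, opposite strand), the strand of the gene was used; the 4 totals that name no gene stayed out of library sizes. Unmapped reads were 16.5% and 17.0% of the reads, and uniquely mapped reads without a gene 2.08% and 2.35%. The files summed to 18598385 and 20638071 reads and differed by more than sampling noise (chi-square 91022, 444 degrees of freedom).

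Names and positions came from GENCODE M21 on the same assembly (1894 of 1973 IDs matched), sequences from RefSeq (GRCm38.p6). Genes were compared between libraries across all genes by Fisher's exact test (two-sided, scipy 1.17.1, adjusted p threshold 0.05). EdgeR 4.0.16 was also used, chosen after seeing the data. Fisher's exact test was checked on simulated data with counting error only. That check cannot vouch for calls between libraries that differ by more than sampling noise. DESeq2 1.42.0 gave size factors. Levels use a pseudocount of 1 CPM. Detected means 10 or more counts in both libraries. The floor was 3 counts. Alternatives covered scaling, strand, count minimum, pseudocount, cluster gap and leaving out a library. Named genes were the members, the 3 nearest to each by level, genes with a member's seed, the marker lists, flanking genes and the extreme 3-gene clusters. Members and lists were chosen with earlier results of these data known.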

Additional observations from a re-analysis of the deposited data

Results flagged for a closer look

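Reads on the strand opposite to the members, which no result above uses, exceeded the limit of 3 counts that a count of 0 allows at both Mir183 and Mir182. Mir183 had 12 such counts in replicate 1 and 4 in replicate 2, or 2.03% (95% Wilson interval 1.17% to 3.52%) and 0.364% (0.141% to 0.931%) of its counts on either strand. Mir182 had 7 and 5, or 0.666% (0.323% to 1.37%) and 0.347% (0.148% to 0.810%). Mir96 had 0 in both, which allows up to 1.27% and 1.02%. Of 312 genes with 100 or more counts on either strand and some on their own, 270 had no opposite-strand count, and 7 had a higher share than Mir183 over both libraries (0.946%). Mir183 thus had more opposite-strand counts in the library where its own strand was lower.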

How the results depend on the processing

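The order of the members and the direction of their ratios between libraries were the same under every alternative run. The cluster's share of 0.0309% became 0.0444% with totals that leave out Mir99a, the most abundant gene, and 0.0142% of all mapped reads; leaving out a replicate gave 0.0263% to 0.0355%. The range of levels within the cluster was 1.94 with a pseudocount of 10 CPM and 2.11 to 2.26 with a replicate left out. Of genes that differ between the libraries, edgeR's exact test called 2 in place of 178, and 2 in place of 7 at 2-fold or more, with a dispersion taken from the differences tested. A test restricted to genes that reach 10 counts in at least 1 library gave 17 at 2-fold or more, with fewer genes to adjust over. Under other scalings, strands and filters the adjusted p of Fisher's exact test lay between 2.40e-31 and 1.35e-22 for Mir183, between 1.20e-10 and 1.22e-05 for Mir182, and between 0.353 and 1 for Mir96. No paired analysis was possible because there is 1 group. Depth limits Mir96 most, with 236 and 294 counts.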
